A study of Caenorhabditis elegans with 9 samples.

Results

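The *clec* genes of *Caenorhabditis elegans*, which encode proteins with C-type lectin-like domains, were examined in animals with altered DAF-7/TGFβ signaling. They were taken as every entry of the deposited expression table whose gene name is a single symbol made of clec- and a number, which gave 246 of 40313 entries. RNA was sequenced from whole worms of 3 genotypes: *daf-1* mutants with the allele *m40*, *daf-1*; *daf-3* double mutants with *m40* and *mgDf90*, a deletion of *daf-3*, and N2, the Bristol wild type. There were 3 biological replicates of each genotype, which the study calls batches 1, 2 and 3. All animals were adult hermaphrodites raised at 16 °C and moved as L4 larvae to 25 °C, where they stayed for 25 h by the sample labels and 1 h less by the methods. Each RNA came from 250 mg of pooled worms.

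C-type lectins are named for a fold that in many animals binds sugars in the presence of calcium. The family has grown large in nematodes, where most members are secreted or carry a signal for export, many are made by the intestine, and several change their transcription when the animal meets pathogenic bacteria. Some are part of other extracellular material, such as the eggshell, and the sugar or partner bound is not known for most. DAF-1 is a type I receptor for the TGFβ ligand DAF-7. The Smad protein DAF-3 is held inactive by this pathway, and loss of *daf-3* suppresses many traits of *daf-1* mutants. A gene that differs from N2 in both mutants does so with *daf-3* and without it. The other case of interest is a gene that differs in *daf-1* mutants and not in double mutants. RNA of *daf-3* single mutants was not sequenced, so what loss of *daf-3* does by itself cannot be told apart in the double mutants.

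Values are FPKM, sequenced fragments scaled to the length of the transcript and to the size of the library, so that levels can be compared between genes. Triplets of values are given in the order of replicates 1, 2 and 3. Replicate 3 of the double mutants was removed in the study as an outlier of its principal component analysis, and it is left out of the tests here unless 9 libraries are named. The double mutants then have n = 2, and batch 3 holds no double mutant. A difference was called when it reached 2-fold on log2(FPKM + 0.25) with a Benjamini-Hochberg adjusted p below 0.05 in limma, fitted over all 13751 entries with at least 0.5 FPKM in at least 2 of the 8 libraries. FPKM totals were 748170 to 959313 per library, and read counts were not used here, so that counting error is unknown. *daf-3* transcript was at 19.9, 22.3 and 20.6 FPKM in *daf-1* mutants, 0, 0.0147 and 0 in the double mutants and 19.2, 18.8 and 22.5 in N2, which separates the double mutants from both other genotypes. *daf-1* transcript was at 13.9, 12.8 and 13.4 FPKM in *daf-1* mutants, 14.5, 13.7 and 13.0 in the double mutants and 21.6, 23.7 and 22.3 in N2, lower in every mutant library than in any N2 library. Markers of oocytes and embryos (5 of 7 with an entry of their own) summed to 2295, 2253 and 2131 FPKM in *daf-1* mutants. The double mutants had 3374, 2728 and 2221 and N2 had 2973, 3055 and 2622. Every *daf-1* sum was below every N2 sum, and none of the 5 markers was called in any comparison. Short of 2-fold, all 5 were lower in *daf-1* than in double mutants, with log2 values of −0.40 to −0.47 (limma adjusted p = 0.019 to 0.0425). Against N2, *rme-2* and *cbd-1* also passed the p threshold in *daf-1* mutants, at −0.48 and −0.43 (adjusted p = 0.0154 and 0.0194). *oma-2*, *puf-5* and *pos-1* did not pass it there. The 5 male markers summed to 1.14 to 1.64 FPKM, with 1 of them at 0 throughout.

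Most *clec* genes were silent or nearly so. Of the 246 members, 34 were at 0 in all 9 libraries and 112 were above 0 in all 9. A mean of at least 10 FPKM over the 9 libraries was reached by 32 members, 37 had 1 to 10 FPKM, and 177 were below 1 FPKM. The test was open to 96 members, and the other 150 stayed below its minimum, the highest single value among them being 1.23 FPKM. Annotation of the same build, WBcel235, located 219 members, of which 83 lie on chromosome V, 45 on IV, 42 on II, 32 on I, 14 on III and 3 on X.

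As a family the *clec* genes took a larger part of the transcriptome in both mutants than in N2. They held 0.845, 0.765 and 0.818% of the FPKM total in *daf-1* mutants, 0.677, 0.589 and 0.715% in the double mutants and 0.479, 0.462 and 0.485% in N2. No mutant library overlapped N2. A single gene, *clec-63*, made up 0.300 to 0.317% in *daf-1* mutants, 0.180 to 0.268% in the double mutants and 0.0640 to 0.0692% in N2. Without it the means were 0.4997% ± 0.0322 (SD, n = 3) in *daf-1* mutants, 0.451% ± 0.0585 (SD, n = 2) in the double mutants and 0.408% ± 0.00940 (SD, n = 3) in N2, and double mutant replicate 2, at 0.409%, lay within the N2 range of 0.398 to 0.416%.

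**Figure D1:**
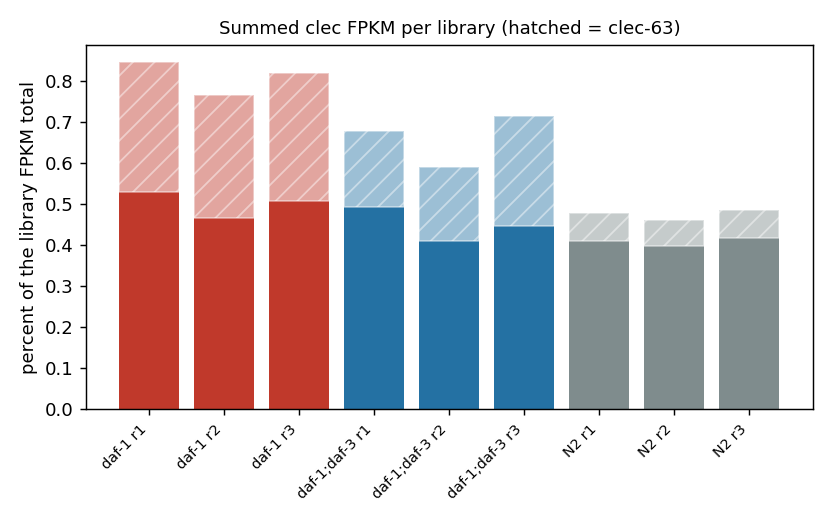
Summed FPKM of all 246 *clec* genes in each library, as a percent of the FPKM total of that library, with the part held by *clec-63* hatched. The *daf-1* bars end at 0.765 to 0.845%, the double mutant bars at 0.589 to 0.715% and the N2 bars at 0.462 to 0.485%, and the hatched part is the smallest in N2.

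Of the 96 *clec* genes tested, 28 were called higher in *daf-1* mutants than in N2 (29.2%) and 6 lower (6.25%), where the shares of all entries tested were 6.27% higher and 0.953% lower. In the double mutants 18 were higher than in N2 (18.8%) and 7 lower (7.29%), against 3.56% and 5.34% of all entries. Between the mutants, 14 were higher in *daf-1* mutants than in double mutants (14.6%) and 8 lower (8.33%), against 11.2% and 1.43%. The share of members higher in *daf-1* mutants than in double mutants was thus near that of all genes, as was the share lower in double mutants than in N2, whereas the other shares were well above it. The median log2 fold change of the members was 0.51 in *daf-1* mutants and 0.32 in the double mutants over N2, each beside 0.02 for all entries, and 0.18 for *daf-1* over double mutants beside 0.00.

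With all 9 libraries in the fit, 98 members were tested. The added library leaves each *daf-1* and N2 value as it was and acts on that comparison through the shared spread and the choice of entries tested. In *daf-1* mutants 21 were then higher than N2 and 5 lower, where all entries had 3.97% and 0.64%, and in the double mutants 17 were higher and 2 lower, against 2.35% and 0.489%. Between the mutants 5 were higher in *daf-1* and 4 lower, against 0.64% and 0.532%. With the batch as a block in the fit of 9 libraries, *daf-1* mutants had 26 members above N2 and 5 below it (4.94% and 0.755% of all entries), the double mutants had 19 above and 3 below (2.52% and 0.604%), and *daf-1* was higher than the double mutants for 7 and lower for 4 (0.863% and 0.611%). Within batches 1, 2 and 3 the median log2 difference of the 96 members was 0.44, 0.65 and 0.58 for *daf-1* minus N2 and 0.09, 0.53 and 0.42 for double mutant minus N2. It was 0.28, 0.16 and 0.13 for *daf-1* minus double mutant, and this median alone turned negative with another scaling, at −0.13 after quantile normalization. Without any threshold, all 3 *daf-1* libraries were above all 3 N2 libraries for 49 of the 96 members and below them for 14 (22.2% and 29.2% of all entries), and all 3 double mutant libraries were above N2 for 30 and below for 10 (11.5% and 7% of all entries). The *daf-1* libraries were all above the double mutants for 20 and below for 11 (7.8% and 15.2% of all entries). RNA from whole worms cannot tell more expressing cells from more RNA per cell, which holds for every difference below.

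Set side by side, the calls against N2 divide the 96 members into those changed in both mutants and those changed in 1. Both mutants were higher than N2 for 15 members (15.6%, and 2.28% of all entries) and lower for 2 (0.335% of all entries). A further gene, *clec-61*, was higher in *daf-1* mutants and lower in the double mutants. Only the *daf-1* call was made for 12 higher members (3.84% of all entries) and 4 lower ones (0.567%), and only the double mutant call for 3 higher (1.24%) and 4 lower (4.85%). The remaining 55 were called in neither. With 9 libraries 14 members were higher in both mutants (1.66% of all entries) and 1 lower in both (0.194%), 7 were higher (2.31%) and 4 lower (0.431%) in *daf-1* only, 3 were higher (0.676%) and 1 lower (0.295%) in double mutants only, and 68 of 98 were called in neither. Both comparisons use the same N2 libraries, so that agreement between them is partly built in, and a call in 1 mutant alone does not show that the mutants differ, for which the comparison of *daf-1* with double mutants is given.

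**Figure D2:**
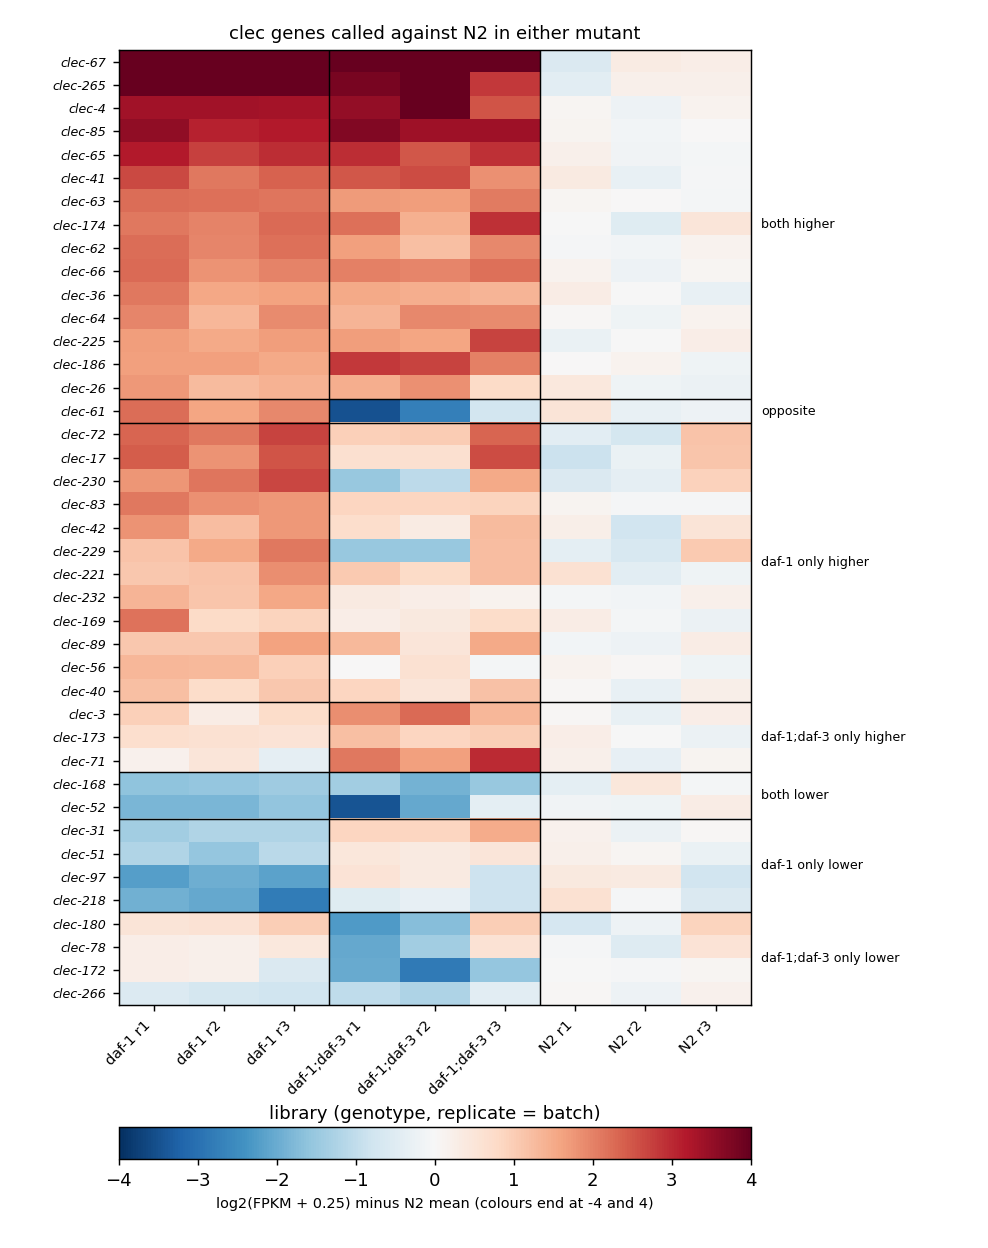
The 41 *clec* genes called against N2 in either mutant, as log2(FPKM + 0.25) minus the N2 mean of the gene, in columns for the 3 libraries of *daf-1* mutants, of double mutants and of N2, and in blocks by class. The top block, 15 genes, is red in all 6 mutant columns; *clec-61* is red in *daf-1* mutants and blue in double mutants; and the third double mutant column departs from the first and second in many of the lower blocks.

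The strongest increase of the family was in *clec-67* (IV: 3922165 to 3925039, plus strand), a gene that infection studies know as induced by bacteria. It was at 83.2, 83.1 and 83.4 FPKM in *daf-1* mutants and 32.0, 32.6 and 23.1 in the double mutants, against 0.0595, 0.328 and 0.312 in N2. All 6 mutant libraries were far above N2, and replicate 3 of the double mutants was the lowest of them. The log2 fold change was 7.49 in *daf-1* mutants (SE 0.224, limma adjusted p = 3.93e-07) and 6.13 in the double mutants (SE 0.24998, adjusted p = 1.79e-06), sizes that depend on the added 0.25 because N2 is so low. *clec-67* was the only gene of the 15 that was also called higher in *daf-1* than in double mutants, by 1.36 on the log2 scale (adjusted p = 0.00779, and 0.0241 with 9 libraries). Without double mutant replicate 1 that difference had an adjusted p of 0.0579.

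*clec-85* (IV: 2850886 to 2855456, plus strand), a gene whose level depends on the p38 MAPK immune pathway, had 283, 204 and 219 FPKM in *daf-1* mutants, 317, 253 and 252 in the double mutants and 25.6, 21.9 and 24.4 in N2. Every mutant library was far above every N2 library, and the mutants overlapped each other. Its log2 fold change was 3.27 in *daf-1* mutants (adjusted p = 2.43e-06) and 3.55 in the double mutants (adjusted p = 2.75e-06), and the difference between the mutants was −0.28 (95% interval −0.63 to 0.07). Another gene, Y54G2A.40, is annotated over *clec-85* on the same strand and Y54G2A.49 on the opposite strand, and the counting is not stated to use strand, so that part of the signal may be theirs.

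*clec-265* (X: 3031783 to 3033117, plus strand) is 1 of the 3 *clec* genes on chromosome X. It was measured at 23.5, 24.2 and 25.7 FPKM in *daf-1* mutants, 18.4, 27.7 and 9.31 in the double mutants and 0.764, 1.31 and 1.32 in N2. Both mutants were above N2 in every library, while double mutant replicate 3 was the lowest of the mutants. The log2 fold changes were 4.19 and 4.08 for *daf-1* and double mutants over N2 (adjusted p = 7.93e-06 and 1.58e-05).

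*clec-4* (II: 12578331 to 12581113, minus strand), a gene used as a marker of the response to infection, had 7.06, 7.22 and 7.03 FPKM in *daf-1* mutants, 7.93, 11.5 and 3.84 in the double mutants and 0.506, 0.369 and 0.546 in N2. All 6 mutant libraries were above N2, and the spread was wide in the double mutants alone. Its log2 fold change was 3.35 in *daf-1* mutants (adjusted p = 1.66e-05) and 3.77 in the double mutants (adjusted p = 1.58e-05).

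*clec-41* (V: 13134903 to 13138101, minus strand), known for a part in defense against *Bacillus thuringiensis*, had 147, 102 and 121 FPKM in *daf-1* mutants, 132, 141.9 and 83.3 in the double mutants and 29.7, 18.7 and 22.5 in N2. The lowest mutant library had more than 2-fold the level of the highest N2 library. The log2 fold change was 2.38 in *daf-1* and 2.55 in double mutants (adjusted p = 7.08e-05 and 9.43e-05). Its neighbour *clec-225*, a gene named here after its values were seen, lies just before it on the same strand and had log2 fold changes of 1.62 and 1.63.

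In 13 of the 15 genes higher in both mutants the difference between the mutants was not called, and in 11 its 95% interval stayed within 2-fold. The exceptions are *clec-67* and *clec-186* (IV: 12866109 to 12869080, plus strand), which is named after its values were seen. *clec-186* had 42.1, 41.9 and 38.7 FPKM in *daf-1* mutants, 96.7, 89.2 and 54.5 in the double mutants and 13.5, 14.8 and 11.9 in N2, so that the order of its levels was double mutant, *daf-1*, N2 with no overlap. The log2 difference of *daf-1* minus double mutant was −1.18 (adjusted p = 0.000816), which became −0.92 (adjusted p = 0.0637) with 9 libraries. *clec-62* and *clec-63* had smaller differences that passed the p threshold and did not reach 2-fold, with log2 values of 0.70 (adjusted p = 0.0121) and 0.51 (adjusted p = 0.00892), both higher in *daf-1*.

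**Figure D3:**
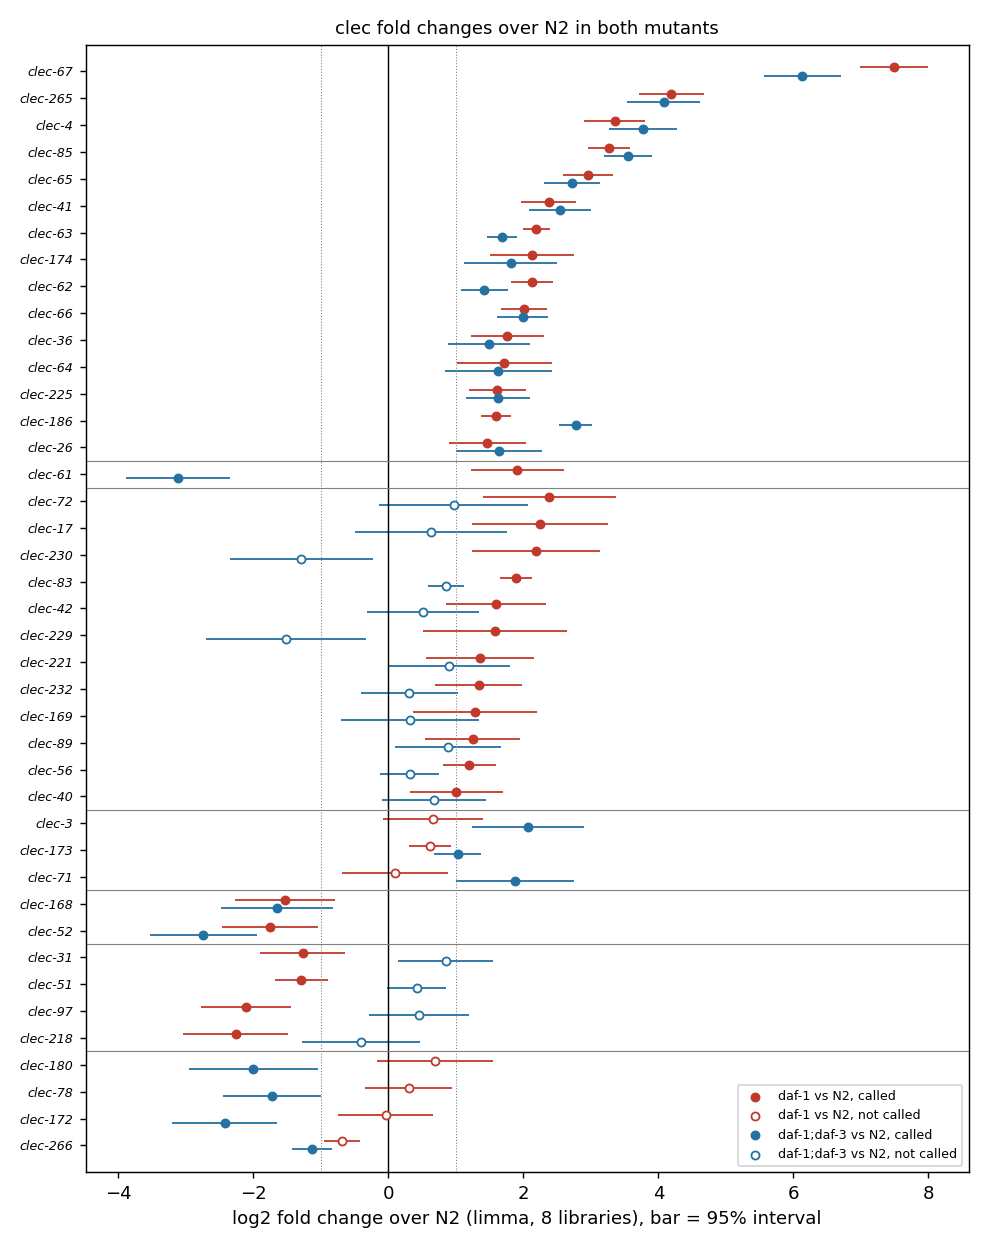
Log2 fold change over N2 of each *clec* gene called in either mutant, with its 95% interval from limma on 8 libraries, *daf-1* mutants in red and double mutants in blue, filled where called. From *clec-67* to *clec-26* both mutants lie to the right of the 2-fold line at 1, *clec-61* has 1.91 in *daf-1* mutants and −3.11 in double mutants, and *clec-51*, *clec-97* and *clec-31* have the red point left of 0 and the blue point right of it.

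A run of 5 genes on chromosome II, *clec-62* to *clec-66*, belongs as a whole to the class higher in both mutants. They lie within 13.6 kb (II: 12893062 to 12906644), and their levels differ widely. *clec-63* (II: 12895638 to 12897446, plus strand) is the most abundant *clec* transcript of the series, at 2556, 2525 and 2375 FPKM in *daf-1* mutants, 1764, 1725 and 2299.7 in the double mutants and 569, 545 and 517 in N2. Its log2 fold change was 2.19 in *daf-1* mutants (SE 0.0887, adjusted p = 2.04e-06) and 1.68 in the double mutants (SE 0.0992, adjusted p = 1.64e-05), and replicate 3 of the double mutants lay nearer to *daf-1* than its other replicates did.

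*clec-65* (II: 12901325 to 12903336, plus strand) had 220.4, 161 and 188 FPKM in *daf-1* mutants, 189, 134 and 184 in the double mutants and 27.8, 21.8 and 22.8 in N2. The mutants overlapped each other and not N2, and the log2 fold changes were 2.96 and 2.72 for *daf-1* and double mutants (adjusted p = 1.21e-05 and 3.44e-05). At the ends of the group *clec-62*, the only one of the 5 on the minus strand, had 89.0, 72.3 and 85.5 FPKM in *daf-1* mutants, 58.9, 42.9 and 70.8 in the double mutants and 18.2, 17.3 and 20.4 in N2. *clec-66* had 24.9, 18.1 and 20.2 FPKM in *daf-1* mutants, 20.9, 20.2 and 23.8 in the double mutants and 5.55, 4.26 and 5.23 in N2. Both again had every mutant library above N2, with log2 fold changes in *daf-1* mutants of 2.13 and 2.01. The middle gene, *clec-64*, was scarce, with 0.997, 0.557 and 0.959 FPKM in *daf-1* mutants, 0.581, 0.968 and 0.955 in the double mutants and 0.0819, 0.0380 and 0.108 in N2, and its call in the double mutants was lost without their replicate 2 (adjusted p = 0.0896). Summed over the 5 genes, FPKM averaged 2779 ± 111 (SD, n = 3) in *daf-1* mutants, 1978 ± 77.6 (SD, n = 2) in the double mutants and 592 ± 27.5 (SD, n = 3) in N2. RefSeq and Ensembl sequence of these genes was not used here, so likeness between their sequences, which could let reads be shared, was not measured.

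Other runs of neighbours were mixed. Of 18 runs with at least 3 members, each beginning at most 20 kb after the one before, 5 had no member tested. The run from *clec-83* to *clec-85* on chromosome IV (2839371 to 2855456) had *clec-83* called in *daf-1* mutants only and *clec-85* in both mutants. *clec-84* between them was called in neither (log2 fold change 0.59 in *daf-1*, 0.34 in double mutants). The 92.1 kb run from *clec-67* to *clec-78* on the same chromosome has 12 members, 9 of them tested. *clec-67* and *clec-174* were higher in both mutants, *clec-72* in *daf-1* only and *clec-71* in double mutants only, and *clec-78* was lower in double mutants only. A 30.7 kb run of 13 members from *clec-40* to *clec-33* on chromosome V had *clec-36* and *clec-26* higher in both mutants, *clec-40* higher and *clec-31* lower in *daf-1* only, and 5 tested members in no class. With 9 libraries *clec-26* lost its call in the double mutants (adjusted p = 0.0514) and with a batch block added kept it (0.0387). Of 4 neighbours from *clec-57* to *clec-54* on chromosome V, all had log2 fold changes of 0.96 to 1.20 in *daf-1* mutants, and *clec-56* alone was called. None of the 5 tested members of chromosome III was called in any comparison.

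**Figure D4:**
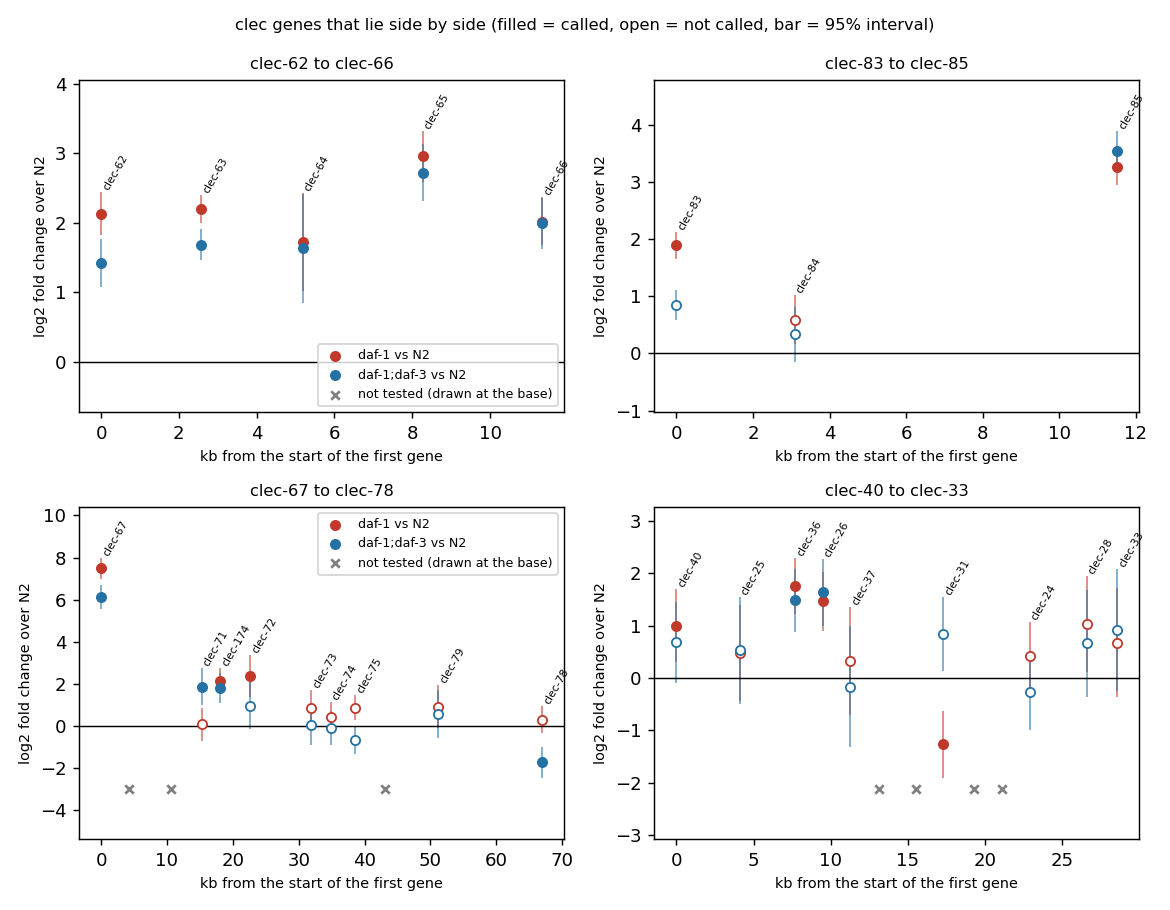
Log2 fold change over N2 with 95% interval for 4 runs of neighbouring *clec* genes, against the distance in kb from the start of the first gene, *daf-1* mutants in red and double mutants in blue, filled where called and crossed where not tested. In *clec-62* to *clec-66* all 10 points are filled and lie between 1.42 and 2.96, while the other runs hold called and uncalled genes side by side.

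*clec-61* (II: 10488730 to 10490537, minus strand), which is known from the response to Gram-positive bacteria, was the 1 member called in opposite directions (0.153% of all entries had this pattern). It is the only *clec* gene for which the study also designed quantitative PCR primers, each 20 bases and shown because they define the part of the transcript that was amplified, all letters in lower case as no stretch of them is singled out. Where they lie within the gene was not determined here.
*clec-61* forward: gcatcggagtacagtgggac
*clec-61* reverse: gtatccgggcgtagcgattt
In the sequencing data *clec-61* had 16.3, 10.2 and 13.1 FPKM in *daf-1* mutants, 0.0617, 0.280 and 1.87 in the double mutants and 4.74, 2.61 and 2.80 in N2. *daf-1* mutants lay above N2 and the double mutants below it with no overlap in any of the 9 libraries. The log2 fold change was 1.91 in *daf-1* mutants (SE 0.302, adjusted p = 0.00451) and −3.11 in the double mutants (SE 0.338, adjusted p = 0.000711), and *daf-1* exceeded the double mutants by 5.03 (adjusted p = 0.000176). With 9 libraries the 2 calls against N2 were lost (adjusted p = 0.0803 and 0.0779), and the difference between the mutants stayed called at 4.23 (adjusted p = 0.0155).

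In 12 members only the increase in *daf-1* mutants was called, and 7 of these were also higher in *daf-1* than in double mutants. *clec-83* (IV: 2839371 to 2841472, minus strand) has the best separated values, at 160.0, 133 and 123.1 FPKM in *daf-1* mutants, 67.3, 66.6 and 68.0 in the double mutants and 39.7, 35.8 and 35.5 in N2. The 3 genotypes formed 3 separate levels with the double mutants between. *clec-83* had a log2 fold change of 1.89 in *daf-1* mutants (adjusted p = 1.22e-05) and 0.85 in the double mutants (adjusted p = 0.00234), the second past the p threshold and short of 2-fold, and 1.04 between the mutants (adjusted p = 0.00213). This last value fell just short of 2-fold without *daf-1* replicate 1, at 0.93. Y54G2A.7 overlaps *clec-83* on the opposite strand.

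*clec-56* (V: 14474399 to 14476794, plus strand) had 35.4, 35.0 and 27.4 FPKM in *daf-1* mutants, 14.3, 21.5 and 13.2 in the double mutants and 15.3, 14.3 and 12.4 in N2. Its *daf-1* libraries were above all others, and the double mutants overlapped N2. The log2 fold change was 1.20 over N2 (adjusted p = 0.00269) and 0.88 over double mutants (adjusted p = 0.0125). The difference from double mutants was below 2-fold, and with 9 libraries it reached it, at 1.01 (adjusted p = 0.0447, and 0.0238 with a batch block).

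The difference between the mutants was smallest in batch 3 for *clec-83*, *clec-42*, *clec-229*, *clec-169* and *clec-40* of this class. It was also smallest in batch 3 for the 3 genes described next. *clec-72* (IV: 3944816 to 3947362, plus strand) had 9.74, 8.47 and 12.9 FPKM in *daf-1* mutants, 3.60, 3.76 and 9.90 in the double mutants and 1.24, 0.9751 and 4.18 in N2. *clec-17* (I: 12430028 to 12431500, minus strand) had 14.6, 9.46 and 15.5 FPKM in *daf-1* mutants, 4.03, 4.06 and 16.8 in the double mutants and 1.29, 2.06 and 5.75 in N2. *clec-230* (V: 15347847 to 15349144, minus strand) had 5.09, 6.77 and 9.75 FPKM in *daf-1* mutants, 0.300, 0.511 and 4.27 in the double mutants and 0.802, 0.992 and 2.77 in N2. In each of them replicate 3 was the highest library of its genotype, and *daf-1* exceeded N2 in every batch. For *clec-230* the log2 difference of *daf-1* minus double mutant was 3.28, 3.21 and 1.15 in batches 1, 2 and 3, for *clec-17* it was 1.795, 1.17 and −0.12, and for *clec-72* 1.37, 1.12 and 0.38. With 9 libraries *clec-17* and *clec-230* lost their calls against N2 (adjusted p = 0.0577 and 0.0932), and *clec-72* kept it (0.0294). With 9 libraries and the batch as a block all 3 were called (0.0149, 0.0219 and 0.0034 for *clec-17*, *clec-230* and *clec-72*). Without the block, none of the 3 was called between the mutants in the fit of 9 (adjusted p = 0.349, 0.145 and 0.298 for *clec-17*, *clec-230* and *clec-72*), and with it *clec-230* alone was, at 2.54 (adjusted p = 0.0352). With 8 libraries and the block, *clec-72* was called higher in the double mutants too, at 1.34 (adjusted p = 0.0363). *clec-229*, next to *clec-230*, was listed at 0 in double mutant replicates 1 and 2 and at 1.44 FPKM in replicate 3, and lost both of its calls with 9 libraries, of which that over N2 was kept with the block (adjusted p = 0.0487).

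*clec-42* (V: 18191412 to 18194168, plus strand), studied together with *clec-41* in infection, had 11.9, 7.92 and 11.4 FPKM in *daf-1* mutants, 5.41, 4.12 and 8.21 in the double mutants and 3.85, 1.81 and 4.78 in N2. *daf-1* replicate 2 was below double mutant replicate 3, so that the mutants overlapped, and the *daf-1* libraries were above N2. Its log2 fold change over N2 was 1.59 (adjusted p = 0.0125), which without *daf-1* replicate 3 had an adjusted p of 0.0504. The difference of 1.08 between the mutants (adjusted p = 0.0464) fell below 2-fold with a replicate block, at 0.91 (adjusted p = 0.0265), and so was not called. *clec-232*, below 1 FPKM in every library, had a difference of 1.03 between the mutants that with the block was 0.92 (adjusted p = 0.0675). Neither was called between the mutants with 9 libraries. The 5 members of this class not called between the mutants with 8 libraries were *clec-56*, *clec-89*, *clec-221*, *clec-40* and *clec-169*. Apart from *clec-56*, their means in *daf-1* mutants were 0.555 to 1.59 FPKM, and each lost its *daf-1* call, or fell below the minimum for a test, in at least 3 of the 8 fits that leave out a library.

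Altogether 9 members were higher in *daf-1* mutants than in N2 and double mutants alike (9.38%, and 1.72% of all entries), and 4 were lower than in both (4.17%, and 0.335%). With 9 libraries the counts were 3 of each, beside 0.295% and 0.165% of all entries.

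The 4 members lower in *daf-1* mutants only were also lower there than in double mutants. *clec-51* (IV: 8161953 to 8163800, minus strand), which overlaps *faah-1* on the opposite strand, had 3.89, 3.02 and 4.28 FPKM in *daf-1* mutants, 13.0, 12.2 and 13.1 in the double mutants and 10.8, 9.88 and 7.76 in N2. Every *daf-1* library was below every other library. *clec-51* had a log2 fold change of −1.29 over N2 (SE 0.174, adjusted p = 0.00199) and −1.71 over double mutants (SE 0.194, adjusted p = 0.0023). With 9 libraries both calls held (adjusted p = 0.00344 and 0.00247).

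*clec-97* (I: 11152704 to 11154330, plus strand), annotated over *clec-98* on the opposite strand, had 1.63, 1.96 and 1.68 FPKM in *daf-1* mutants, 12.3, 10.8 and 4.56 in the double mutants and 11.1, 10.8 and 4.88 in N2. Again no *daf-1* library reached any other, and replicate 3 of both other genotypes was lower than its fellow replicates. The log2 fold change was −2.11 over N2 (adjusted p = 0.0023) and −2.56 over double mutants (adjusted p = 0.00326), and with 9 libraries both remained called (0.0186 and 0.045).

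*clec-218* (V: 8307942 to 8310766, plus strand), a gene that responds to Gram-positive bacteria, had 1.33, 1.19 and 0.603 FPKM in *daf-1* mutants, 4.05, 4.49 and 3.08 in the double mutants and 8.94, 5.59 and 3.71 in N2. The *daf-1* libraries were below the rest, and N2 had a wide spread. *clec-218* had a log2 fold change of −2.26 over N2 (adjusted p = 0.00364) and −1.86 over double mutants (adjusted p = 0.0104), the second lost with 9 libraries (0.0574) and kept with 9 and a batch block (0.0179). *clec-31* was scarce throughout, at 0, 0.0375 and 0.0333 FPKM in *daf-1* mutants, 0.930, 0.937 and 1.57 in the double mutants and 0.495, 0.306 and 0.435 in N2, and its call over N2 was kept in 4 of the 8 fits that leave out a library.

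**Figure D5:**
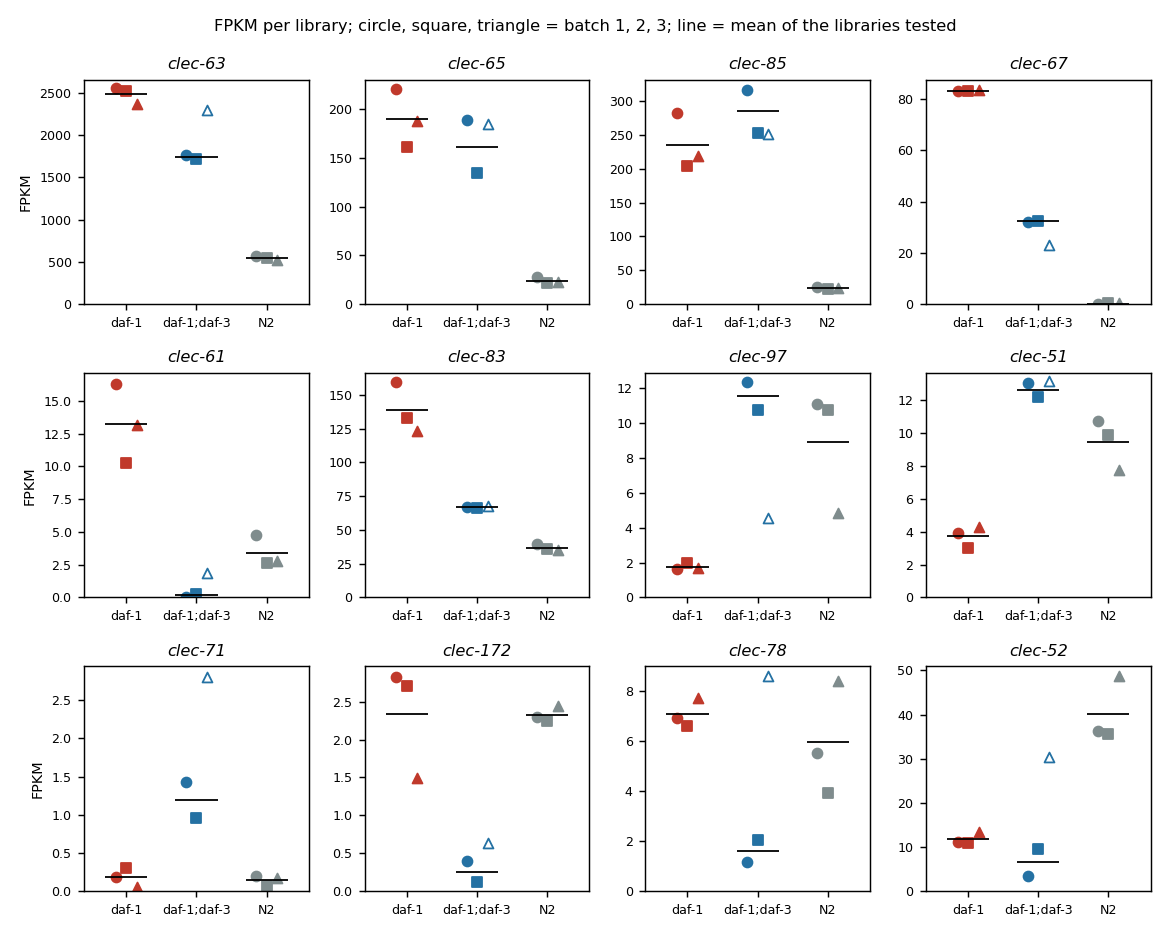
FPKM of 12 *clec* genes in each library, circles, squares and triangles for batches 1, 2 and 3, with a line at the mean of the libraries tested and the untested double mutant replicate 3 as an open triangle. *clec-63*, *clec-65*, *clec-85* and *clec-67* are above N2 in all 6 mutant libraries, *clec-97* and *clec-51* are lowest in *daf-1* mutants, and the open triangle of *clec-78* and *clec-52* lies far above the other double mutant points.

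Changes in the double mutants alone were fewer, with 3 members higher and 4 lower. *clec-71* (IV: 3937458 to 3939979, plus strand), from the response to *Staphylococcus aureus*, had 0.187, 0.299 and 0.0531 FPKM in *daf-1* mutants, 1.43, 0.963 and 2.81 in the double mutants and 0.197, 0.0610 and 0.173 in N2. The double mutant libraries were above all others, and *daf-1* mutants overlapped N2. *clec-71* had a log2 fold change of 1.87 in double mutants (adjusted p = 0.0131) and of −1.77 for *daf-1* over double mutants (adjusted p = 0.0122), and both held with 9 libraries (0.0156 and 0.0401). With 9 libraries and a batch block the call over N2 held (0.0321) and that between the mutants did not (0.0544). Without double mutant replicate 1 or 2 *clec-71* was below the minimum for a test.

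*clec-3* (II: 3017468 to 3019907, minus strand) had 0.354, 0.132 and 0.264 FPKM in *daf-1* mutants, 0.880, 1.24 and 0.537 in the double mutants and 0.0728, 0 and 0.120 in N2. The double mutants were again above all others, although here *daf-1* mutants did not overlap N2. Its log2 fold change in double mutants was 2.06 (adjusted p = 0.00714), and its difference between the mutants was lost with 9 libraries (adjusted p = 0.144). *clec-173* (IV: 3266404 to 3267681, minus strand) had 49.6, 47.9 and 46.1 FPKM in *daf-1* mutants, 71.9, 57.0 and 61.5 in the double mutants and 37.5, 30.6 and 26.4 in N2. Here all 3 genotypes stood apart in the order double mutant, *daf-1*, N2, and the log2 fold change in double mutants of 1.03 was only just 2-fold. It fell to 0.96 with a replicate block and so was not called, and the same happened without double mutant replicate 1 and without N2 replicate 3 (lowest value 0.87).

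*clec-172* (IV: 1515453 to 1516627, minus strand), over *txt-4* on the opposite strand, was the 1 decrease of the double mutants called in every alternative, at 2.83, 2.71 and 1.496 FPKM in *daf-1* mutants, 0.391, 0.111 and 0.636 in the double mutants and 2.30, 2.24 and 2.45 in N2. *daf-1* mutants overlapped N2, and all 3 double mutant libraries were below both. *clec-172* had a log2 fold change of −2.42 (adjusted p = 0.00284, and 0.013 with 9 libraries), and *daf-1* exceeded the double mutants by 2.39 (adjusted p = 0.0042, and 0.0306 with 9).

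*clec-78* (IV: 3989102 to 4014235) had 6.90, 6.61 and 7.69 FPKM in *daf-1* mutants, 1.17, 2.02 and 8.60 in the double mutants and 5.497, 3.91 and 8.38 in N2. *clec-180* (IV: 7568893 to 7573766) had 5.83, 6.12 and 8.13 FPKM in *daf-1* mutants, 0.630, 1.05 and 8.22 in the double mutants and 2.42, 3.45 and 7.602 in N2. In both genes the low double mutant replicates 1 and 2 were joined by a replicate 3 at the level of the other genotypes, and the calls over N2 were lost with 9 libraries (adjusted p = 0.496 and 0.606). *clec-266* (X: 6617393 to 6622915), the fifth most abundant member, which overlaps *kqt-1* on the opposite strand, had 240.0, 217.8 and 206 FPKM in *daf-1* mutants, 174, 149.6 and 264 in the double mutants and 362, 306 and 401 in N2. Both mutants were below N2 in every library, and the decrease passed 2-fold in the double mutants only (log2 fold change −0.68 in *daf-1* mutants and −1.13 in double mutants, adjusted p = 0.00633 and 0.000985). With 9 libraries the double mutants too were short of 2-fold, at −0.90 (adjusted p = 0.039).

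Of the 2 members lower in both mutants, *clec-52* (IV: 8167164 to 8168760, minus strand) was at 10.98, 10.9 and 13.3 FPKM in *daf-1* mutants, 3.42, 9.49 and 30.5 in the double mutants and 36.3, 35.6 and 48.7 in N2. All mutant libraries were below N2, double mutant replicate 3 only narrowly so. The log2 fold change of −1.75 in *daf-1* mutants and −2.74 in double mutants (adjusted p = 0.00757 and 0.0017) was called in neither with 9 libraries (0.0981 and 0.134). *clec-168* was scarce, at 0.124, 0.146 and 0.182 FPKM in *daf-1* mutants, 0.188, 0.0607 and 0.150 in the double mutants and 0.631, 1.33 and 0.844 in N2, and its *daf-1* call was lost without N2 replicate 2 (adjusted p = 0.0578).

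Markers of molting, sperm, pharynx, epidermis and intestine are given beside these values. Molting markers (7 tested of 10) summed to 555, 640 and 661 FPKM in *daf-1* mutants, 145, 171 and 814 in the double mutants and 416, 456 and 741 in N2. Replicate 3 was the highest of each genotype, as in *clec-17*, *clec-52*, *clec-72*, *clec-78*, *clec-180* and *clec-230*. How many members share this pattern was not counted. Of the 7 markers, 5 were called lower in the double mutants than in N2 (71.4%, beside 5.34% of all entries). In double mutant replicates 1 and 2 this molting sum was below N2 of the same batch. *clec-52*, *clec-78*, *clec-180* and *clec-230* were below N2 there too, and *clec-17* and *clec-72* were above it. Pharynx markers (5 of 5) summed to 134 to 181 FPKM in *daf-1* mutants, 63.8 to 194 in the double mutants and 66.5 to 103 in N2. Of these, *myo-1*, *myo-2* and *tnc-2* were called higher in *daf-1* mutants than in N2 (60%, beside 6.27% of all entries). *ceh-22* was called lower in the double mutants than in N2 (20%, beside 5.34%). Sperm markers (5 tested of 8) summed to 13.1 to 17.6 FPKM in *daf-1* mutants, 0.335, 16.2 and 1.15 in the double mutants and 1.10 to 5.40 in N2. *msp-3*, *spe-11* and *gsp-3* were called higher in *daf-1* mutants than in N2 (60%, beside 6.27% of all entries). No sperm marker was called in the double mutants. Intestine markers (6 of 7) summed to 10606 to 11044 FPKM in *daf-1* mutants, 10399 to 12758 in the double mutants and 9463 to 11665 in N2, most of it from the yolk protein genes *vit-2* and *vit-6*. Of the others, the intestinal actin *act-5* was called higher in *daf-1* mutants than in N2 (log2 fold change 1.05, adjusted p = 0.000784), and *ges-1* and *ifb-2* were above N2 there without overlap and short of 2-fold (0.81 and 0.91). In the double mutants these 3 had 0.69, 0.30 and 0.20, and *elt-2*, a GATA factor of the intestine, had −0.63 (adjusted p = 0.0083). Epidermis markers (5 of 6) summed to 1478 to 2118 FPKM in *daf-1* mutants, 884 to 3035 in the double mutants and 721 to 1031 in N2, most of it the adult collagen *col-19*, which was called higher in both mutants. The scarce *bli-1* was called higher in *daf-1* mutants only, at 1.24 (limma adjusted p = 0.0323). In the double mutants *dpy-7* and *wrt-2* were called lower than N2 (−1.99 and −2.52), and the median over the 5 was −0.67. No marker of these 5 lists was at 0 in all libraries, though *msp-3*, *msp-142* and *ssp-16* of the sperm list were at 0 in some, and the part of any of these tissues in the *clec* values was not tested.

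Of the 5 most abundant members, *clec-87*, *clec-50* and *clec-150* were called in neither mutant. *clec-87* (I: 10184462 to 10185520, minus strand) had 869, 875 and 803 FPKM in *daf-1* mutants, 1391, 1025 and 831 in the double mutants and 1090.1, 1231 and 990.1 in N2. *clec-50* (V: 19752399 to 19755368, minus strand) had 678, 672 and 639 FPKM in *daf-1* mutants, 723, 632 and 538 in the double mutants and 466, 445 and 403 in N2. *clec-150* (III: 1002707 to 1006298, plus strand) had 233, 199 and 221 FPKM in *daf-1* mutants, 374, 256 and 343 in the double mutants and 308, 295 and 278 in N2. *clec-50* was higher in both mutants by less than 2-fold, with log2 fold changes of 0.60 in *daf-1* and 0.63 in double mutants (adjusted p = 0.00367 and 0.00506). For *clec-87* and *clec-150* the *daf-1* mean was the lowest, with log2 fold changes over N2 of −0.37 (adjusted p = 0.0648) and −0.43 (adjusted p = 0.0436). Over all 55 members in no class the log2 fold change was −0.67 to 1.16 in *daf-1* mutants (median 0.33) and −1.04 to 1.60 in double mutants (median 0.16). Within this group *clec-75*, *clec-258* and *clec-139* differed between the mutants, the first and second higher in *daf-1* and the third lower, and none was called with 9 libraries (adjusted p = 0.262, 0.0606 and 0.381). With a batch block added *clec-258* alone was called (0.0237).

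Among 11 *clec* genes known from infection work, a list chosen with earlier results of these data known, 8 were tested. It holds *clec-61* and *clec-67*, which the study reports as increased in *daf-1* mutants in these same libraries. It does not hold *clec-218*, which responds to Gram-positive bacteria and was called lower in *daf-1* mutants than in N2. The counts below therefore depend on the choice of list and are not an independent check. In *daf-1* mutants 6 of the 8 were higher than N2 and none lower, beside 29.2% higher among all *clec* genes tested and 6.27% among all entries, namely *clec-4*, *clec-41*, *clec-42*, *clec-61*, *clec-67* and *clec-85*. In the double mutants *clec-4*, *clec-41*, *clec-67*, *clec-71* and *clec-85* were higher and *clec-61* lower, beside 18.8% higher and 7.29% lower among all *clec* genes tested and 3.56% and 5.34% among all entries. *clec-49*, which is needed for resistance to *Serratia marcescens*, had 48.6, 49.1 and 42.2 FPKM in *daf-1* mutants, 42.8, 42.4 and 35.9 in the double mutants and 51.1, 43.3 and 35.3 in N2 and was called in no comparison (log2 fold change 0.12 in *daf-1* mutants, 95% interval −0.18 to 0.42). *clec-39* and *clec-70* were below the minimum for a test, and *clec-60* shares its entry with another gene. That joined entry had log2 fold changes over N2 of −0.99 in *daf-1* mutants and −4.65 in double mutants, the second called lower.

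Among 12 tested regulators of immune gene expression, 1 was called higher than N2 in each mutant (8.33%) and none lower. All entries had 6.27% higher in *daf-1* mutants and 3.56% in double mutants. The called gene was *sek-1*, the MAP kinase kinase upstream of the p38 kinase PMK-1. It was at 33.3, 31.3 and 31.001 FPKM in *daf-1* mutants and 27.0, 32.5 and 35.5 in the double mutants, against 6.86, 4.81 and 6.39 in N2. No mutant library came near N2, and the log2 fold change was 2.37 in *daf-1* mutants (adjusted p = 1.85e-05) and 2.27 in double mutants (adjusted p = 4.61e-05), with 0.10 between them. *pmk-1* itself had 22.8, 24.3 and 23.6 FPKM in *daf-1* mutants, 22.2, 20.7 and 25.9 in the double mutants and 24.1, 27.0 and 26.8 in N2, and was called in neither. *pqm-1*, which encodes a zinc finger transcription factor, was higher in both mutants by less than 2-fold, with 0.89 in *daf-1* and 0.71 in double mutants (adjusted p = 0.000399 and 0.00275). Other regulators also passed the p threshold short of 2-fold. *vhp-1* had 0.67 in *daf-1* mutants (limma adjusted p = 0.0179). *tir-1* had −0.40 in *daf-1* and −0.57 in double mutants (adjusted p = 0.0415 and 0.0252). In double mutants *hlh-30* and *elt-2* had −0.46 and −0.63 (adjusted p = 0.0422 and 0.0083). Among 12 tested genes of TGFβ signaling only *daf-3*, the gene deleted in the double mutants, was called, lower there (8.33%, beside 5.34% of all entries). Short of 2-fold, *sma-4* had 0.75 in *daf-1* and 0.73 in double mutants (limma adjusted p = 0.00228 and 0.00447). *daf-1* had −0.74 and −0.67 (adjusted p = 0.00114 and 0.00369). In *daf-1* mutants *daf-5* had −0.52 and *daf-7* 0.47 (adjusted p = 0.0125 and 0.0457). Lysozymes, saposin-like proteins and infection response genes other than lectins (31 tested of 46) had 5 members higher than N2 and 5 lower in *daf-1* mutants (16.1% each), where all entries had 6.27% and 0.953%. In the double mutants 3 were higher (9.68%) and 6 lower (19.4%), where all entries had 3.56% and 5.34%.

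Called in every one of the 20 alternatives were 17 of the 28 increases in *daf-1* mutants over N2 and 3 of the 6 decreases, those of *clec-97*, *clec-51* and *clec-218*. In the double mutants this held for 13 of 18 increases and 1 of 7 decreases (*clec-172*). Between the mutants it held for 2 of 14 increases (*clec-61* and *clec-172*) and 2 of 8 decreases (*clec-51* and *clec-97*). The 13 increases of the double mutants called in every alternative all belong to the 15 genes higher in both mutants.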

How the data were processed

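RNA from 9 populations of worms was sequenced by the authors as poly(A)-selected paired reads. Per the labels they used bcl2fastq 1.8.4, Trim Galore 0.4.0, TopHat2 2.0.12 on WBcel235 and Cufflinks, whose version the labels write as 2.21. The deposited table holds FPKM values that the authors obtained from Cufflinks, 1 column per library, with 186 of 40313 entries naming no gene. It has no column of another sample. Read counts, and therefore depth, were not used here, and errors come from the spread between libraries of a genotype alone.

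Values were analysed as log2(FPKM + 0.25) with limma 3.58.1 in R 4.3.3, all genotypes in 1 linear model with a trend of variance on level, without double mutant replicate 3. This replaces Cuffdiff, which models counts. Fold changes are on the log2(FPKM + 0.25) scale and understate the change of low genes. The test was checked on simulated data that were independent between libraries and held no batch effect or outlier library. Batch numbers pair the libraries, since the paper names them as batches. Deviations from the genotype means correlated 0.094 to 0.525 between libraries of the same number over 9 pairs. Between libraries of different numbers and genotypes they correlated −0.408 to 0.321, so the 2 ranges overlap. A fit with the batch as a block was an alternative. P-values set a difference against this pooled spread. Those of the double mutants, with n = 2, rest largely on the spread in the other genotypes and entries. In all, 20 alternatives were run.

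Genes named in the text were the *clec* genes that the paper names, up to 6 of each class with the smallest p, all called higher or lower in *daf-1* than in both other genotypes, the 5 most abundant, those in runs of neighbours and those known from infection. Members and lists were chosen with earlier results of these data known. Positions come from Ensembl release 115 of WBcel235, in which 219 of 246 members were found; 26 tested members overlap another gene. Promoter and protein sequences were not analysed here. The primer sequences were copied from a supplementary table of the study.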

Additional observations from a re-analysis of the deposited data

Results flagged for a closer look

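Besides the 246 members, 17 entries join a *clec* gene with other genes and give 1 value for all of them, so that the part of the *clec* gene cannot be read. They were not used in the report, some were too low for a test, and 3 of them were called higher in a mutant than in N2. Of all entries tested, 6.27% were higher in *daf-1* mutants and 3.56% in double mutants. Calls lower than N2 were made for the *clec-190* entry in *daf-1* mutants and the *clec-60* and *clec-165* entries in double mutants. All entries had 0.953% and 5.34% lower in *daf-1* and double mutants. The entry of *clec-80* and *clec-81* had 18.5, 15.0 and 15.0 FPKM in *daf-1* mutants, 9.39, 11.9 and 10.1 in the double mutants and 6.82, 7.65 and 5.41 in N2, a log2 fold change of 1.26 in *daf-1* mutants. Y54G2A.7, Y54G2A.74 and *clec-82* had together 27.6, 23.7 and 25.8 FPKM in *daf-1* mutants, 8.49, 8.54 and 11.8 in the double mutants and 10.3, 6.52 and 7.27 in N2, a log2 fold change of 1.67 in *daf-1* mutants. The entry of 21ur-3208 and *clec-190* had 1.27, 6.90 and 3.63 FPKM in *daf-1* mutants, 312, 112 and 65.4 in the double mutants and 14.5, 18.8 and 7.49 in N2, a log2 fold change of 3.85 in the double mutants, while *daf-1* mutants were lower than N2, at −1.90 on the same scale (limma adjusted p = 0.00665 and 0.0445).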

How the results depend on the processing

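Counts of members against N2 in *daf-1* mutants and of members higher in both mutants were within 1.5 times under the alternatives, with 1 exception named next: without the 2-fold minimum, 10 members in place of 6 were lower in *daf-1* mutants. With all 9 libraries, 2 members in place of 7 were lower in double mutants than in N2, 5 in place of 14 were higher and 4 in place of 8 lower in *daf-1* than in double mutants, 1 in place of 2 was lower in both mutants, and 4 in place of 7 changed in double mutants only. All 9 libraries with a replicate block gave 3, 7, 4 and 1 for the first 4 of these. A pseudocount of 1 gave 4 lower in *daf-1* than in double mutants, 1 lower in both, and 9 in place of 16 changed in *daf-1* only. A minimum of 2 FPKM gave 5, 1 and 9 for the same. Quantile normalization left 8 higher in *daf-1* than in double mutants. Batches 1 and 2 alone gave 1 lower in both, and fits of only 2 genotypes gave 4 lower in double mutants than in N2 and 1 lower in both. The causes were not tested.

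Leaving out each replicate in turn gave 22 to 30 higher and 5 to 6 lower in *daf-1* mutants, 15 to 19 higher and 5 to 7 lower in double mutants, 14 to 17 higher in both and 1 to 2 lower in both. It gave 7 to 14 higher and 3 to 9 lower in *daf-1* than in double mutants, 9 to 19 changed in *daf-1* only and 3 to 8 in double mutants only. The members higher in *daf-1* than in double mutants were 7 without double mutant replicate 1 and 9 without *daf-1* replicate 1, and the lower ones 3 and 4 without double mutant replicates 1 and 2. Members changed in *daf-1* only were 9 without *daf-1* replicate 3 and 10 without N2 replicate 2. Those changed in double mutants only were 3 without double mutant replicate 1, and those lower in both were 1 without double mutant replicate 2 or N2 replicate 2.

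With 8 libraries and a replicate block, *daf-1* mutants had the same 28 members above N2 and the same 6 below it. In double mutants 18 were higher, with *clec-72* in place of *clec-173*, and 8 lower, with *clec-258* added (adjusted p = 0.0329). Between the mutants 12 were higher, without *clec-42* and *clec-232*, and 7 lower, without *clec-139* (adjusted p = 0.0603). The block changed no other call among the 96 members. Single fold changes were followed through the alternatives for 33 of the *clec* genes named. Other members named in the text, such as *clec-62* and *clec-186*, are outside this tally. Among the 33, no log2 fold change turned its sign while called. Of 1944 such values under an alternative, 1808 kept their side of the thresholds, 114 lost a call and 22 gained one. The low *clec* genes, 177 of 246 below 1 FPKM, lie nearest to the minimum for a test, and their depth is unknown.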

Other observations

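*clec-60* is widely used as a reporter of intestinal infection responses. Among the joined entries that were not called higher than N2, ZK666.13 with *clec-60* had 15.9, 8.47 and 9.97 FPKM in *daf-1* mutants, 0.722, 0.577 and 2.37 in the double mutants and 23.9, 18.99 and 24.1 in N2. The double mutants were below both other genotypes with no overlap, at a log2 fold change of −4.65 over N2 (limma adjusted p = 1.20e-05), and *daf-1* mutants had −0.99 (adjusted p = 0.0183), just short of 2-fold. F38A1.9 with *clec-165* had 2.04, 1.24 and 1.36 FPKM in *daf-1* mutants, 0.429, 0.886 and 1.796 in the double mutants and 2.40, 2.41 and 2.26 in N2, and was lower in the double mutants than in N2, with a log2 fold change of −1.57 (adjusted p = 0.0103). How much of either value belongs to the *clec* gene was not tested.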
